A study of Mus musculus with 6 samples.

Results

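The cytosolic ribosomal protein genes were read on 101 probe sets for 47 genes, of 45037 probe sets tested on 6 whole-genome mouse expression arrays. A probe set was taken where the platform annotation gave it a single gene symbol of the Rpl or Rps series, or Rplp0, Rplp1, Rplp2 or Rpsa. Ribosomal S6 kinases and mitochondrial ribosomal proteins were left out. A further 110 probe sets carried a ribosomal protein symbol among several symbols and were not used. Those 110 were the only ones for 28 ribosomal protein genes, among them Rpl3 and Rpl10, and 15 genes were on both kinds. The 101 probe sets held 57 for 23 small subunit genes, 42 for 22 large subunit genes and 2 for the stalk genes Rplp0 and Rplp2.

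The cells were mouse embryonic stem (ES) cells of the line EBRTcH3 (EB3), with the coding sequence of human WBSCR1 and a 3xFLAG tag placed at the ROSA26 locus. WBSCR1 is the human counterpart of Eif4h, a factor that helps unwind mRNA when translation starts. Expression was driven by a promoter that tetracycline represses. Clones A1, A3 and A4 each gave a control array from cells grown with tetracycline and an induced array from cells grown for 24 h without it. All 6 arrays came from transgenic cells, so removal of tetracycline and expression of the transgene cannot be told apart. Each clone was derived separately and was read once in each condition. In the main test of induction, the p-values measure the spread between these 3 arrays a condition. Those of the clone tests measure how the 2 arrays of a clone disagree after condition is allowed for, and not the spread between clones. Replicates 1, 2 and 3 are A1, A3 and A4.

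A ribosome joins a small subunit, which reads the codons of an mRNA, to a large subunit, which forms the peptide bonds. Each ribosomal protein is present once in nearly every ribosome, apart from the stalk proteins that recruit elongation factors, and the genes are known for mRNAs that are abundant in dividing cells. Their mRNAs typically begin with a terminal oligopyrimidine (TOP) tract, through which mTORC1 and Larp1 control their translation. A few genes have paralogues known from particular tissues, such as Rpl3l from muscle and Rpl39l from testis.

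The ES cell identity and the quality of the arrays bear on every value below. All 11 ES cell marker genes lay between 10.3 and 14.05 log2, while 0 of 7 fibroblast or feeder genes (2.67 to 7.11) and 0 of 7 endoderm genes (4.02 to 5.97) reached 8. Array medians were 5.11 to 5.19 log2. The A3 arrays stood apart: their 24 poly-A spike-in probe sets averaged 7.27 to 7.39 against 5.97 to 6.35 in the other arrays. Probe sets were picked that were at least 1 log2 higher on induction in A1 and at least 1 lower in A4. There were 63, 0 of them for ribosomal proteins, and the reverse pick gave 0. These 63 averaged 7.78 in control A4 and 7.89 in induced A1 against 6.35 to 6.57 elsewhere, a gap that the pick itself builds in. On induction the 18S ribosomal RNA controls read higher by a mean of 0.68 log2, going from 5.66 to 7.03 in A1 and from 6.61 to 7.27 in A3 but standing at 5.99 in both A4 arrays. Its part in the differences below was not tested. The 3′ and 5′ signals of Actb differed by 0.29 to 0.45 log2 and those of Gapdh by -0.007 to 0.10.

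A TOP tract lies at the start of an mRNA, so the start letters are shown for genes whose values are described below. RefSeq start windows of GRCm38.p6 were found for 41 of the 47 genes, with 49 starts. A tract was counted where a C, followed by at least 4 bases that are C or T on the gene strand, began within 5 bases of the annotated start, and the opposite strand was not searched. It was found at 20 of the 49 ribosomal protein starts (40.8%) and at 18.3% of all 32851 starts of the table, or for 19 of 41 genes (46.3%) and 21.2% of all genes. The windows below run from 10 bases before the start base to the 20 bases from it on. Capitals mark the run from the qualifying C nearest the start, and pyrimidines upstream of that C stay in lower case. This C of Rpl27a, at chr7:109519185-109519214 on the plus strand, lay 1 base before the start, and that of Rps9, at chr7:3704031-3704060 on the plus strand, lay 3 before it. Rps6 (chr4:86857348-86857377, minus strand), Rps18 (chr17:33955646-33955675, minus) and Rps27 (chr3:90213629-90213658, minus) held it at the start base. Rpl39 (chrX:37085203-37085232, minus) held a short one 4 bases upstream, and its paralogue Rpl39l (chr16:10170218-10170247, plus) held none within 5 bases of the start. The letters of Rpl3l (chr17:24727816-24727845, plus), Rps3 (chr7:99483690-99483719, minus) and Rps4x (chrX:102189372-102189401, minus) did not begin a tract within 5 bases of the start either. Runs of C and T farther from the start, as in the letters of Rpl39l and Rpl3l, were not counted. Whether the annotated starts are those used in these cells was not tested, so the counts hold for annotated starts alone.
Rpl27a: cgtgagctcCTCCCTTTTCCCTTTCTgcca
Rps9: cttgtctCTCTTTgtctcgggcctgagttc
Rps6: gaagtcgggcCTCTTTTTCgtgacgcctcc
Rps18: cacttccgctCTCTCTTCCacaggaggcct
Rps27: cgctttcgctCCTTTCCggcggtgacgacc
Rpl39: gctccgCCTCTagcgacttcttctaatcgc
Rpl39l: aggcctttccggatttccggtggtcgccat
Rpl3l: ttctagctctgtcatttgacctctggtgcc
Rps3: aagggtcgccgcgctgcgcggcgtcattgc
Rps4x: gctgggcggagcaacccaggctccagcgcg

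Signal was near the top of the array scale for most members. Of the 101 probe sets, 69 averaged at least 12 log2 and 14 averaged under 6, with a median of 13.35 (2.80 to 14.34) where the median over all probe sets was 5.15. The signal of a probe set depends on its probes, so these values do not rank the genes. The name endings of the probe sets went with the signal: 26 of 27 ending in _a_at and 34 of 40 ending in _x_at reached 12 log2, but 7 of 31 ending in plain _at did. The endings mark probe sets whose probes match several transcripts of a gene (_a_at), of a family (_s_at) or partly unrelated sequences (_x_at). For 36 genes the brightest probe set reached 12 log2. For the other 11 it did not, and 9 of these (Rpl12, Rpl14, Rpl27a, Rpl37, Rpl39, Rps16, Rps25, Rps27 and Rps6) also had probe sets with several symbols. The values of these 9 genes come from their probe sets with a single symbol alone.

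**Figure D1:**
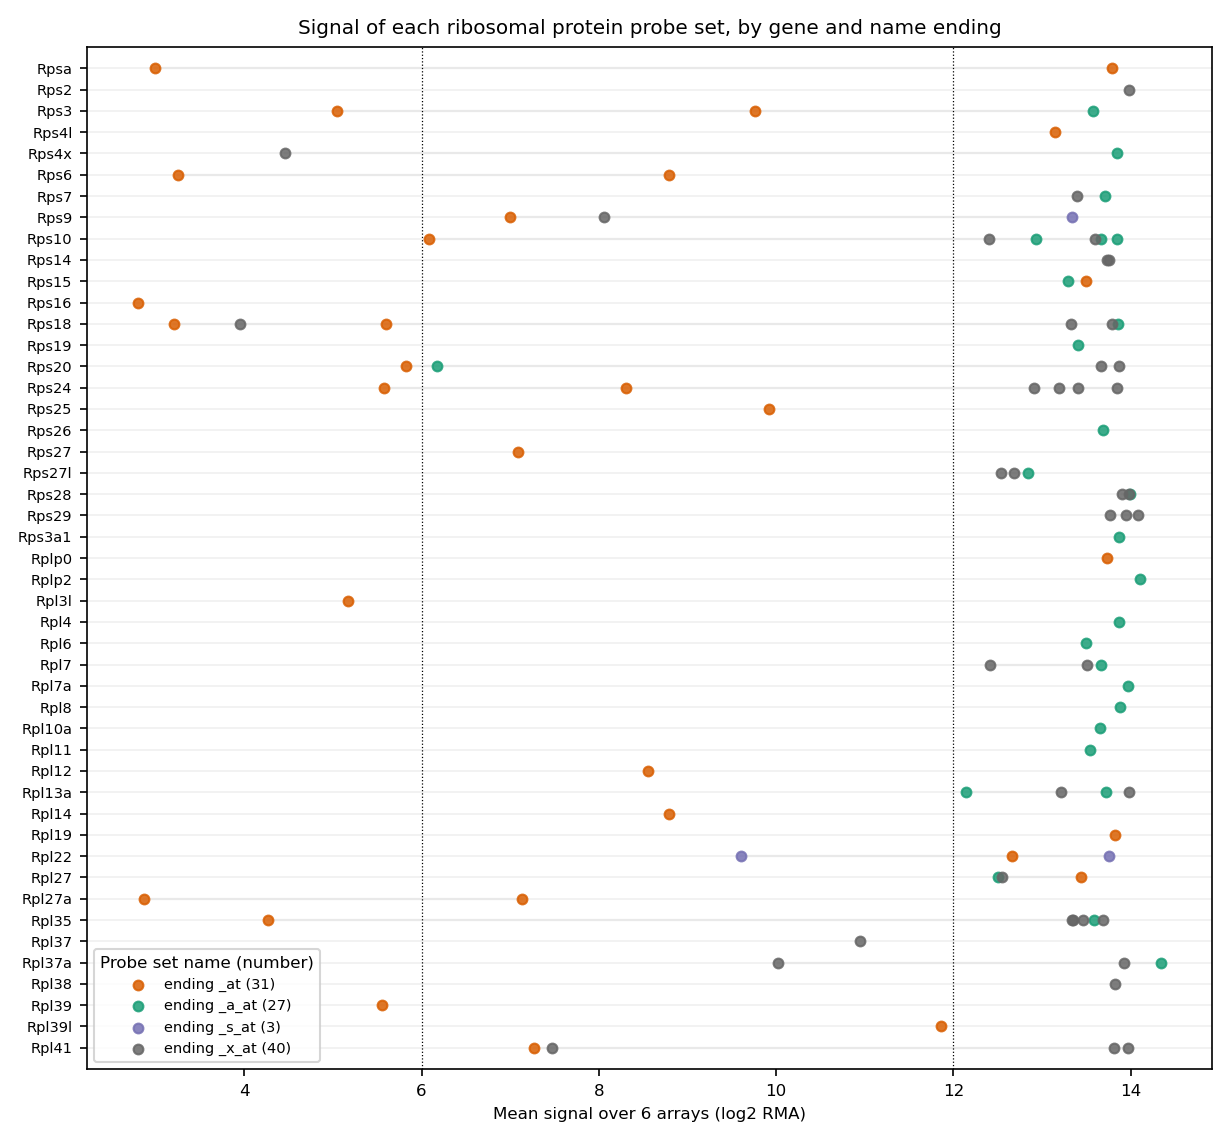
Mean signal over the 6 arrays (horizontal axis, log2 RMA) of each of the 101 ribosomal protein probe sets, by gene (vertical axis), coloured by the ending of the probe set's name, with grey lines joining probe sets of a gene. Dotted lines mark 6 and 12 log2, and 7 genes have probe sets on both outer sides.

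Probe sets of a single gene lay at very different signals, which the choice of probes alone can give. Rps3, a small subunit protein at the mRNA entry channel, had probe sets at 13.58, 9.76 and 5.05 log2. Rps18 had 3 probe sets between 13.33 and 13.86 and 3 at 5.60, 3.95 and 3.20. Rpsa, the small subunit protein also called the laminin receptor, read 13.79 on 1 probe set and 3.00 on the other. In all, 7 genes (Rpl35, Rps18, Rps20, Rps24, Rps3, Rps4x and Rpsa) had a probe set under 6 and another of at least 12 log2.

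The study asked which genes changed when human WBSCR1 was induced, and among ribosomal protein probe sets none passed the test. By limma 0 of 101 were called at an adjusted p of 0.05, as were 0 of all 45037 (0%). The smallest adjusted p was 0.999942, and at an unadjusted p under 0.05 there were 2 members, both higher, and 676 probe sets in all (1.50%, of which 0.464% were higher and 1.04% lower). With clone as a block the counts were 0 and 0 adjusted, and 2 members and 1539 probe sets (3.42%) unadjusted. The t-test of the study's methods also gave 0, with 1 member and 1096 probe sets unadjusted, and its paired form gave 0, with 2 and 1846. Differences were small: 63 members were higher and 38 lower, with a median of 0.0087 log2 where that of all probe sets was -0.0031. The difference lay within 0.1 log2 for 84 of the 101, and its 95% interval within 0.5 log2 in either direction for 91. With 58 of the 101 at 13 log2 or above, many members lay close to the array maxima of 14.29 to 14.41 log2, where compressed signal can hide a change, and these counts do not bound the change in mRNA. In every array but control A1 the maximum was itself a member, Rpl37a on 1416217_a_at, so these maxima are not a ceiling read apart from the members.

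By clone, the members changed on induction by a median of -0.0025 log2 (A1), -0.013 (A3) and 0.063 (A4), beside -0.019, 0.0098 and -0.0078 over all probe sets. Without control A4 and induced A1, the median over the members was 0.0095. That fit set controls A1 and A3 against induced A3 and A4, so only A3 was paired and clone was mixed with induction. The small subunit probe sets had a median of 0.0077 log2 (33 of 57 higher) and the large subunit probe sets 0.0098 (29 of 42 higher). The stalk proteins read 0.031 for Rplp0 and -0.0014 for Rplp2. The same direction in all 3 clones was read upward for 10 members (9.90% of all probe sets) and downward for 0 (11.9%). Arrays of the conditions did not overlap, with induced higher, for 2 members (2.10% of all probe sets): Rpl27a on 1437729_at and Rps28 on 1454778_x_at, the latter by 0.029 log2. With induced lower there were 0 (3.42%).

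Rpl27a, a large subunit protein, had the largest difference among the members on 1437729_at. This probe set read 6.74, 6.89 and 6.89 log2 in the control arrays of A1, A3 and A4 and 7.40, 7.61 and 7.29 in the induced arrays. Every induced array lay above every control array. The difference was 0.59 ± 0.11 log2 (SE), with a limma p of 0.00095 and an adjusted p of 0.999942. Its other probe set, 1419799_at, read 2.79, 3.14 and 2.78 in control arrays and 2.98, 2.82 and 2.71 in induced arrays, near the bottom of the scale, with overlapping groups. That difference was -0.067 ± 0.13 log2 (SE). Neither probe set lay in the range of 12 log2 and above where most members lay, and Rpl27a was also on probe sets with several symbols. Rpl27a on 1437729_at was not called in any of the 10 fits that left out arrays or in the 11 other alternatives, and read 0.50 log2 without induced replicate 2 and 0.69 without replicate 3 at the extremes.

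Rpl3l, the muscle paralogue of Rpl3, was the other member with an unadjusted p under 0.05. Its probe set 1449398_at read 4.95, 5.18 and 4.94 log2 in control arrays and 5.16, 5.36 and 5.43 in induced arrays. The signal was dim throughout and the groups overlapped, since control A3 lay above induced A1. The difference was 0.29 ± 0.12 log2 (SE), with a limma p of 0.037 and an adjusted p of 0.999942.

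The other small p among positive differences belonged to Rps20 on 1421935_at (0.26 ± 0.14 log2, SE) and 1450417_a_at (0.19 ± 0.17), Rpl14 (0.16 ± 0.097) and Rps18 on 1450390_x_at (0.23 ± 0.16). The bright probe sets of the same genes did not share those differences: Rps20 read 0.0053 on 1456373_x_at and -0.0088 on 1456436_x_at, and Rps18 read -0.0063, -0.013 and 0.047 on its 3 bright probe sets. Among negative differences, the smallest p were those of Rps4x on 1420303_x_at (-0.22 ± 0.15), Rps16 (-0.16 ± 0.12), Rps6 on 1453466_at (-0.14 ± 0.15), Rps27l on 1450925_a_at (-0.092 ± 0.099) and Rpl12 (-0.11 ± 0.15). Rps6 is the substrate of the S6 kinases, and its brighter probe set 1416142_at read 0.11 ± 0.13. With clone as a block, Rps9 on 1426958_at (-0.12) also came among them. Apart from that of Rps27l, these probe sets averaged under 9 log2. Rps20 on 1421935_at was higher in all 3 clones, and each of the others held a clone with an opposite or no change, as the plot of changes by clone shows.

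**Figure D2:**
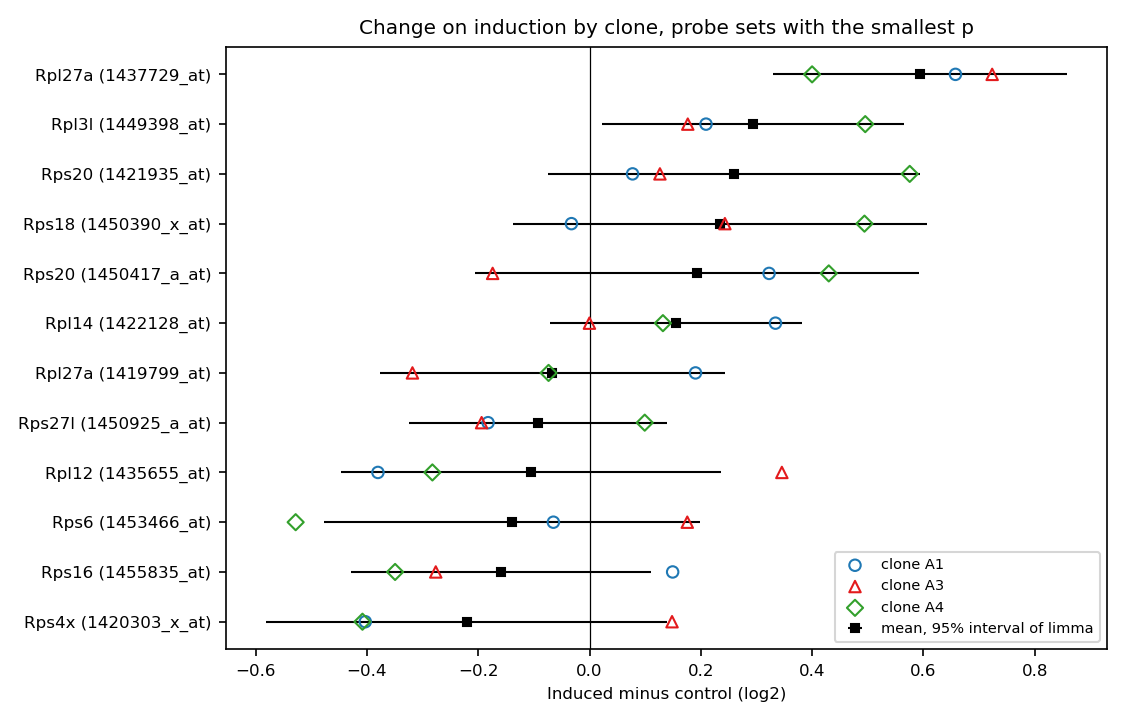
Induced minus control (horizontal axis, log2) for 12 ribosomal protein probe sets with the smallest limma p in each direction and both of Rpl27a (vertical axis). Open symbols are clones, squares the mean and bars its 95% interval, which includes 0 for 10 of the 12.

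Spread was smaller at the top of the signal range. Over the 6 arrays, the 58 members of at least 13 log2 had a median SD of 0.046 log2, and the 186 other probe sets as bright had 0.058. All 58 differed by -0.036 to 0.057 log2 between conditions, at signals close to the array maxima. Among the 18 members between 6 and 12 log2 the median SD was 0.18, and among the 14 under 6 it was 0.17, where other probe sets of these ranges had 0.16 and 0.15.

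Few ribosomal protein probe sets were called between clones, and most members lay at signals where smaller shares of all probe sets were called. The limma F test over clones called 2 of 101 at an adjusted p of 0.05, where 5.54% of all probe sets were called. The contrast of A3 with the mean of A1 and A4 called 3, of which 1 was higher and 2 lower, where 9.57% of all probe sets were called (3.89% higher and 5.68% lower). A3 had stood apart in an earlier analysis of these data, so this contrast was not chosen blind. Of the 69 members of at least 12 log2 the contrast called 0, with 30 of the 660 probe sets as bright called in all (4.55%), and the F test called 0, with 10 of 660 (1.52%). All called members came from the 32 under 12 log2. There the contrast called 3 members and 9.64% of all probe sets, and the F test 2 members and 5.60%. These counts of members were near those shares. The median of A3 minus A1 and A4 over the members was 0.010 log2, beside 0.031 over all probe sets. The A3 arrays did not overlap the others for 17 members with A3 higher (19.8% of all probe sets) and 7 with A3 lower (16.6%). Poly-A spike-ins averaged 1.21 log2 higher in the A3 arrays, the spike-in BioC 1.05 higher and 18S ribosomal RNA 0.77 higher, and BioD differed by -0.27. The clone and these differences between arrays cannot be told apart. Some markers moved with the clone too: the contrast called 4 of 19 endoderm, 2 of 19 ES cell and 0 of 12 fibroblast or feeder probe sets, all lower in A3. The 7 endoderm genes averaged 4.84 and 4.89 log2 in the A3 arrays and 5.11 to 5.36 in the others, with all 7 under 6 log2. Sox7 differed by -0.83, Gata4 by -0.76, Gata6 by -0.73, Sox17 by -0.36 and Foxa2 by -0.22, but Afp by 0.038 and Ttr by 0.17. Among ES cell genes Klf4 differed by -0.51 and Esrrb by -0.45, but Dnmt3l by 0.30. The other ES cell genes differed by -0.12 (Tdgf1) to 0.038 (Sox2). The part of these markers in the clone differences was not tested.

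Rpl39l, the paralogue of the small large-subunit protein Rpl39, was higher in A3. Its probe set 1423327_at read 11.69, 12.22 and 11.61 log2 in the control arrays of A1, A3 and A4 and 11.69, 12.19 and 11.73 in the induced arrays. These values lay well above the median of 5.15 over all probe sets, so the probe set gave signal in ES cells. Both A3 arrays lay above all 4 others, and induction moved the mean by 0.031 log2. The clone difference was 0.53 ± 0.099 log2 (SE), with an adjusted limma p of 0.0154 for the contrast and 0.0460 for the F test. The contrast was called without induced replicate 3 (adjusted limma p 0.0329) and lost without each of the other 5 arrays (0.0527 to 0.1004) and without replicate 1 (0.0676) or replicate 3 (0.0540), where its size stayed between 0.48 and 0.58 log2. The F test was lost in all 9 fits that left out arrays or clones (adjusted limma p 0.0540 to 0.997), with array medians subtracted (0.0583) and with arrayWeights (0.0554). The F test fit without replicate 2 held no A3 array. It compared A1 with A4 alone and could not test the A3 difference. Rpl39 itself read 5.57, 5.65 and 5.48 in control arrays and 5.39, 5.66 and 5.57 in induced arrays. That was 0.15 ± 0.10 log2 higher in A3 and not called (adjusted limma p 0.433), at a dim signal on its 1 probe set with a single symbol.

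Rps3 was lower in A3 on 1455600_at, which read 9.73, 9.38 and 9.98 log2 in control arrays and 10.10, 9.26 and 10.12 in induced arrays. Both A3 arrays lay below the others. The difference was -0.66 ± 0.12 log2 (SE), with an adjusted limma p of 0.0155 for the contrast and 0.0436 for the F test. The other Rps3 probe sets read otherwise, 1435151_a_at by -0.0028 at 13.58 log2 and 1447563_at by 0.13 at 5.05 log2. Whether a change of that size was compressed at the first signal or lost at the second was not tested. Without replicate 2 no A3 array was left, so the F test there compared A1 with A4 alone. The F test was called in 1 of 9 fits that left out arrays or clones (adjusted limma p 0.0383 to 0.979). The contrast was lost without induced replicate 1 (adjusted limma p 0.0635), induced replicate 2 (0.174) and replicate 3 (0.0661).

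Rps9 was lower in A3 on 1426958_at, which read 7.41, 6.33 and 7.43 log2 in control arrays and 6.88, 6.69 and 7.25 in induced arrays. Here too the A3 arrays were the lowest in each condition. The difference was -0.73 ± 0.17 log2 (SE), with an adjusted limma p of 0.0345 for the contrast and 0.0875 for the F test. The contrast was lost without each control array (adjusted limma p 0.0727 to 0.219), without induced replicate 3 (0.0564) and without replicate 3 (0.118). Its size was -0.38 log2 without control replicate 2. The bright Rps9 probe set 1433689_s_at read 0.083 and 1434624_x_at -0.23, neither of them called.

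**Figure D3:**
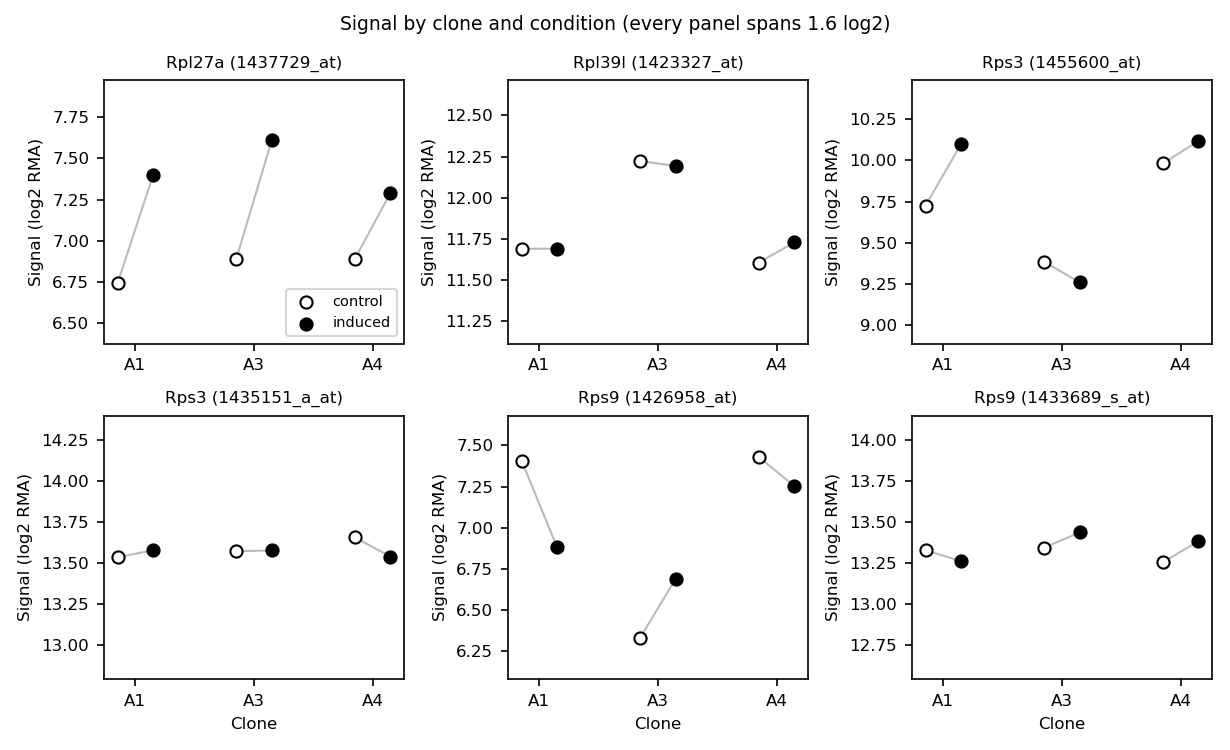
Signal (vertical axis, log2 RMA) by clone (horizontal axis) in control (open) and induced (filled) arrays, with grey lines joining arrays of a clone, for Rpl27a, Rpl39l and probe sets of Rps3 and Rps9. Both A3 arrays are highest for Rpl39l and lowest for the called probe sets of Rps3 and Rps9, while the bright probe sets of Rps3 and Rps9 are level.

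**Figure D4:**
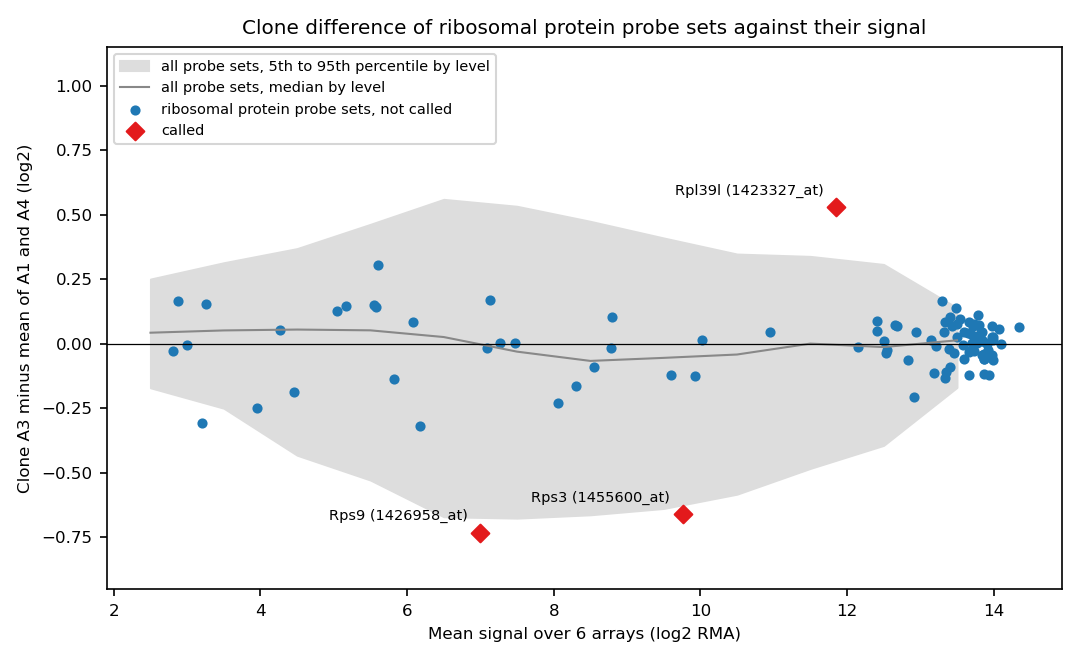
Clone A3 minus the mean of A1 and A4 (vertical axis, log2) against mean signal (horizontal axis, log2 RMA) for the 101 ribosomal protein probe sets, over the 5th to 95th percentile of all probe sets by level. The 3 called are red diamonds and lie below 12 log2.

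Clones A1 and A4 did not differ in a called member: 0 of 101, where 8 of all probe sets were called (0.0178%), with 1 member unadjusted (4.34% of all probe sets). That member was Rpl22 on 1448398_s_at, which read 9.55, 9.53 and 9.77 log2 in control arrays and 9.45, 9.51 and 9.80 in induced arrays. A4 was highest in both conditions. The difference of A1 from A4 was -0.29 log2 (limma p 0.035), and the other probe sets of Rpl22, a large subunit protein, read -0.067 and -0.026.

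Paralogues that could be read side by side gave no called difference on induction. Rps27l, a paralogue of Rps27 induced by p53, had 3 probe sets between 12.54 and 12.84 log2, and induction moved them by -0.016, -0.016 and -0.092 log2. Rps27 on its 1 probe set read 7.16, 7.01 and 7.03 in control arrays and 7.09, 7.15 and 7.12 in induced arrays, a difference of 0.052. Rps4x, the X-linked small subunit protein, read -0.0041 on its bright probe set 1416276_a_at, and Rps4l, which RefSeq lists as a transcribed pseudogene, read 0.039 at 13.15 log2. Near-identical copies may share probes, so the signals of Rps4l and Rps4x are uncertain as gene levels. Rpl22l1, the paralogue of Rpl22, differed by 0.097 log2 on induction at 12.47 log2. None of these was called between conditions or clones. The paralogues Rpl39l (0.53 log2) and Rpl7l1 on 1452049_at (-0.52 log2) were called between A3 and the other clones, but not on induction. The X-linked members, Rpl39 and Rps4x on 1416276_a_at, were each higher in A3, by 0.15 and 0.045 log2, and Rps4x on 1420303_x_at was lower by 0.19 at 4.46 log2, none called.

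Probe sets of the same gene often differed in direction. Of 23 genes with several probe sets (77 in all), all probe sets pointed the same way for 9 on induction and for 7 between A3 and the other clones. The gap between a gene's highest and lowest difference had a median of 0.079 log2 on induction and reached 0.66 for Rpl27a, and between clones it had a median of 0.12 and reached 0.81 for Rps9. Among 17 genes with at least 2 probe sets of 12 log2 or more, the same direction was read for 7 and 9, and the gaps were at most 0.0996 and 0.18 log2.

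Genes that act with ribosomal proteins gave 0 called probe sets on induction in each list. Ribosome biogenesis factors (94 probe sets for 44 genes) had a median of 0.0067 log2, with the smallest p for Imp4 (-0.28) and Nip7 (0.14). Elongation factors and other TOP mRNAs (33 probe sets) had a median of -0.0011, and the mTORC1 pathway and TOP regulators (18) had -0.027. The smallest p in these belonged to dim or weakly changed probe sets: Eef2, the translocation factor, on 1440784_at (0.30 at 2.73 log2) and Eif3h (-0.14), then the kinase Mtor (-0.19) and its inhibitor Tsc1 (0.16). Ribosomal proteins and related genes outside the naming rule, namely Fau, Rpl22l1, Rpl7l1 and Rsl24d1 (6 probe sets), had a median of 0.039.

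Between clones, 12 probe sets of these lists were called by the A3 contrast, 11 of them lower in A3 and 1, for biogenesis, higher. They were 5 of 94 for biogenesis, 3 of 33 for elongation and other TOP mRNAs, 3 of 18 for the regulators and 1 of 6 outside the naming rule. Of all probe sets 9.57% were called, 5.68% lower and 3.89% higher. All 3 called among the regulators were probe sets of Larp4. Larp4, a protein that binds poly(A) tails, read 11.03, 10.19 and 11.08 log2 in control arrays and 11.05, 9.98 and 11.20 in induced arrays on 1439010_at. A3 was lowest in both conditions, with a difference of -1.01 log2 (adjusted limma p for the F test 0.00642), and on 1455102_at the difference was -0.77. Imp4, a part of the small subunit processome, differed by -0.91 on 1455723_at, the splicing regulator Hnrnpa1 by -0.86 on 1436549_a_at and nucleolin (Ncl) by -0.65 on 1442404_at. Pabpc1, the poly(A)-binding protein, differed by -0.49 on 1453840_at (adjusted limma p for the contrast 0.0297) and Rpl7l1 by -0.52 on 1452049_at (0.0209).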

How the data were processed

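RNA of 3 clones was read on 6 Affymetrix whole-genome mouse arrays, 3 a condition. The deposited values are log2 signals, which the authors computed with the robust multiarray average (RMA) of the Bioconductor affy package, as the submitters' processing notes name it (version: not given in the sources used here). RMA adjusts background, sets all arrays to one distribution and summarises the probes of a probe set, so it removes shifts common to an array. No further normalization was applied. The tests used 45037 of 45101 probe sets, without the 64 of the Affymetrix controls.

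Groups, replicate numbers and clones came from the sample labels. Induced and control arrays were compared with limma 3.58.1 (R 4.3.3; lmFit, then eBayes), two-sided, with condition alone, as no block is named for the study's t-test. Clones were compared in a fit with condition and clone. Benjamini-Hochberg adjustment ran over all 45037 probe sets at 0.05. The clone is the pairing of the replicate numbers, and deviations from group means correlated within A1, A3 and A4 at r = 0.313, 0.670 and 0.290 over all probe sets, so the block was also run. Control A4 with induced A1 (0.369) and control A1 with induced A4 (0.348) correlated more than A1 or A4 within the clone, and over the members the values within clones were -0.121, 0.194 and 0.0839. The number of arrays limits the precision.

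Symbols came from the platform annotation (1 for 34945 probe sets, several for 932, none for 9160). Start windows came from RefSeq (GRCm38.p6), and probe and protein sequences were not used here. The named probe sets were both of Rpl27a, the 6 smallest p in each direction on induction with and without the block, all called between clones, the 5 largest in each direction for each clone contrast, paralogue and X-linked members, the 6 genes with the widest gaps between their probe sets, and the 2 smallest p of each list. Members, lists and the A3 contrast were chosen with earlier results of these data known. Scripts were tested on simulated data. Alternatives were filters on dim probe sets, array medians subtracted, a second quantile normalization, cyclic loess, trend and robust eBayes, arrayWeights, leaving out _s_at and _x_at probe sets, the methods' t-test, the block, clone terms only, and leaving out arrays or clones. Plots were drawn with matplotlib in Python.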

Additional observations from a re-analysis of the deposited data

Results flagged for a closer look

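Rps9 on 1434624_x_at changed on induction by 0.534 log2 in A1 and 0.456 in A4, but by -0.600 in A3. It read 7.91, 8.21 and 7.87 log2 in the control arrays of A1, A3 and A4 and 8.44, 7.61 and 8.33 in the induced arrays, so A3 was the highest control array and the lowest induced array. It was picked because clones moved at least 0.5 log2 in opposite directions. Each clone was read once in each condition, so whether the clones differ in this change was not tested. The bright Rps9 probe set 1433689_s_at changed by -0.065, 0.093 and 0.13 in A1, A3 and A4.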

How the results depend on the processing

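The 0 calls on induction held over all 10 fits that left out arrays and 11 other alternatives, with the replicate block (clone, which pairs the arrays) also at 0. The median difference of the members ran from -0.015 (without replicate 3) to 0.029 log2 (without replicate 1) with arrays left out and from 0.0074 to 0.033 (array medians subtracted) in the others. The F test over clones called 1 member instead of 2 with array medians subtracted and 1 with arrayWeights, and 0 to 2 without single arrays or clones, with 8 to 2724 of all probe sets called. The A3 contrast called 3 members in all 9 other alternatives and 0 to 2 when arrays or clones were left out, with 1312 to 3098 of all probe sets called, and A1 minus A4 called 1 to 8. The A3 median over the members was -0.020 log2 with array medians subtracted, 0.026 with cyclic loess and 0.027 without _s_at and _x_at probe sets, and ran from -0.00076 to 0.030 with arrays or clones left out. Without replicate 2 no A3 array was left, and the F test over clones compared A1 with A4 alone. The clone fit with condition could not be made without both control replicate 3 and induced replicate 1. Uncalled named values turned sign where arrays were left out. On induction, Rps9 on 1426958_at ran from -0.48 without control replicate 2 to 0.060 without control replicate 1, 0.072 without control replicate 3, 0.010 without induced replicate 2, 0.091 without replicate 1 and 0.10 without both control replicate 3 and induced replicate 1. Rpl27a on 1419799_at ran from -0.20 without both of these arrays to 0.051 without control replicate 2 and 0.058 without replicate 2. Rpl12 ran from -0.33 without replicate 2 to 0.032 without replicate 1 and 0.0025 without both arrays, and Rps6 on 1453466_at from -0.30 without replicate 2 to 0.055 without replicate 3. For A3, Rpl27a on 1419799_at ran from -0.022 without control replicate 2 to 0.36 without induced replicate 2. For A1 minus A4 it ran from -0.050 without induced replicate 1 to 0.34 without control replicate 1, and Rps9 on 1426958_at from -0.51 without control replicate 1 to 0.11 without induced replicate 1. Rps20 ran from -0.0024 to 0.47 on 1421935_at and from -0.059 to 0.30 on 1450417_a_at, without control replicate 3 and induced replicate 3. The cause was not tested.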
